A study of Homo sapiens with 10 samples.

Results

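The bone morphogenetic protein (BMP) pathway and the inhibitor of DNA binding (ID) genes were described with 10 member genes out of the 63299 genes listed in the count tables. The members were listed by name (BMP4, BMPR1A, BMPR2, ACVR1, SMAD1, SMAD5, SMAD6, ID1, ID2 and ID3) and found by their Ensembl identifiers, and all 10 were found. The cells were U2OS, an established osteosarcoma cell line. They were harvested 48 h after transfection with a pool of control siRNAs (siCtrl, 5 libraries) or with a pool of siRNAs against DDX41 (siDDX41, 5 libraries), and polyadenylated RNA was sequenced. All groups come from this cell line, and the labels do not say whether the libraries of a group came from separate cultures, so p-values measure only the spread between these libraries, which may be technical. Total counts per library lay between 23393764 and 24598860 in siCtrl and between 21807041 and 24896398 in siDDX41.

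BMPs are secreted growth factors, named for their ability to induce bone, that bind receptors made of type I and type II serine/threonine kinases. The type I kinase then phosphorylates SMAD1, SMAD5 or SMAD9, which enter the nucleus with SMAD4 and switch on target genes, among them the ID genes and the inhibitory SMADs that dampen the signal. ID proteins lack a DNA-binding domain and keep E proteins, the partners of many tissue-specific transcription factors, away from DNA.

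DDX41, the RNA helicase gene targeted by the siRNAs, was measured first. Its level in CPM (counts scaled by library size and TMM factors) was 49.1, 49.4, 47.3, 47.2 and 50.5 in the siCtrl libraries and 11.5, 13.7, 12.4, 11.2 and 12.3 in the siDDX41 libraries. Each siDDX41 library lay far below each siCtrl library, as the labels state. The log2 fold change was -1.99 (SE 0.049, edgeR adjusted p = 4.47e-24, where the adjustment runs over all tested genes).

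Of the 16143 genes that passed edgeR's filter on low counts, 62.4% were called at an adjusted p under 0.01, and 7 of the 9 tested members were called, with ID3 not tested. BMP4, BMPR2 and ACVR1 (3 members, against 30.3% of all tested genes) were upregulated. SMAD1, SMAD5, ID1 and ID2 (4 members, against 32.1% of all tested genes) were downregulated. BMPR1A and SMAD6 were not called. The share of members called is near that of all tested genes, so the counts alone do not set the members apart. The changes were small, with a median absolute log2 fold change of 0.3 among the 9 tested members and 0.283 among all tested genes, and no member passed a log2 fold change of 1 in either direction (2.54% of tested genes did so upward and 6.08% downward). In bulk RNA, fewer cells of a kind and less RNA per cell cannot be told apart.

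**Figure D1:**
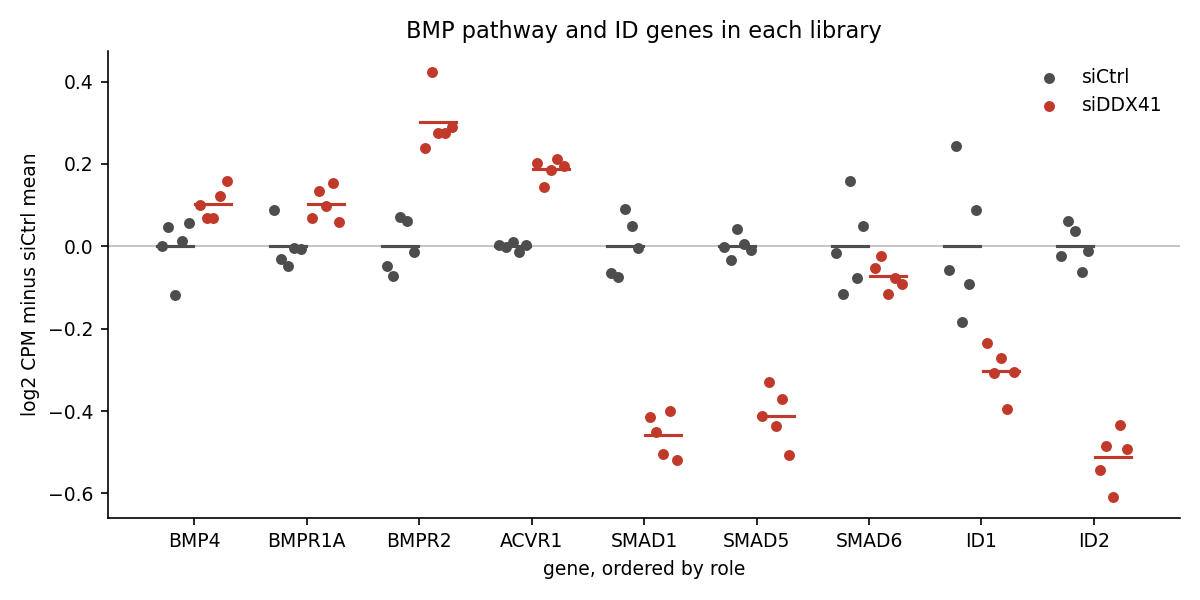
Level of each of the 9 tested members in each library, as log2 CPM minus the mean of the siCtrl libraries, with horizontal lines at the group means (n = 5 per group). SMAD1, SMAD5, ID1 and ID2 lie lower in all 5 siDDX41 libraries than in any siCtrl library, and BMP4, BMPR2 and ACVR1 lie higher.

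Among the ligands, BMP4 (chr14:53949736-53958761, minus strand, GRCh38), a morphogen of early embryos and a strong inducer of bone, had CPM levels of 126, 130, 116, 127 and 131 in siCtrl and 135, 132, 132, 137 and 140.5 in siDDX41. The groups did not overlap, but the highest siCtrl library and the lowest siDDX41 libraries lay next to each other. BMP4 had a log2 fold change of 0.10 (SE 0.032, edgeR adjusted p = 0.00578), a rise of 7.34%. This call rests on single libraries, since the edgeR adjusted p was 0.0118 without siCtrl replicate 1, 0.0313 without siCtrl replicate 3, 0.0102 without siDDX41 replicate 1, 0.0142 without siDDX41 replicate 4 and 0.02 without siDDX41 replicate 5, with a range of 0.00231 to 0.0313 over 14 alternatives.

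Of the other tested BMP ligands, all but BMP5 moved further than BMP4, and in both directions. BMP7 fell from 28.3 ± 1.08 to 9.46 ± 1.38 CPM (mean and SD of 5 libraries). Its log2 fold change was -1.58 (SE 0.067, edgeR adjusted p = 6.73e-18). BMP6 was upregulated from 6.77 ± 0.672 to 15.6 ± 2.13 CPM, with a log2 fold change of 1.20 (SE 0.088, edgeR adjusted p = 1.55e-11). GDF7, a related ligand, fell by 0.97 on the log2 scale. In the ligand list of 14 genes, 6 were tested. Of these, BMP4 and BMP6 rose, and BMP2, BMP7 and GDF7 fell, against 30.3% called higher and 32.1% lower among all tested genes. BMP5 was not called (log2 fold change 0.08, edgeR adjusted p = 0.0221). BMP5 was called without siDDX41 replicate 5 (edgeR adjusted p = 0.00947, with a range of 0.00947 to 0.0744 over 14 alternatives). BMP2 and BMP5 are named to complete the counts and were chosen after their values were seen. Per kb of canonical transcript, BMP4 stood at 65.3 ± 3.05 CPM per kb in siCtrl and BMP7 at 7.03, so BMP4 was the more abundant of these ligands before and after knockdown (70.1 against 2.35 CPM per kb in siDDX41).

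The receptor members rose together or did not pass the test. BMPR2 (chr2:202376327-202567751, plus strand), the type II receptor kinase for BMPs, had CPM levels of 163, 160.3, 177, 176 and 167 in siCtrl and 199, 226, 204, 204 and 206 in siDDX41. All siDDX41 libraries lay above the siCtrl libraries, and siDDX41 replicate 2 was the highest. Its log2 fold change was 0.30 (SE 0.034, edgeR adjusted p = 7.31e-09), a rise of 23.1%.

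ACVR1 (chr2:157736251-157876330, minus strand), a type I receptor kinase whose activating mutations cause ectopic bone formation, had CPM levels of 61.2, 61, 61.5, 60.5 and 61.2 in siCtrl and 70.3, 67.5, 69.5, 70.8 and 69.9 in siDDX41. The siCtrl libraries were nearly equal, and the groups did not overlap. ACVR1 had a log2 fold change of 0.19 (SE 0.031, edgeR adjusted p = 3.69e-06), a rise of 14%. BMPR1A (chr10:86756596-86932825, plus strand), the other type I receptor among the members, ranged from 41.3 to 45.4 CPM in siCtrl and from 44.5 to 47.5 CPM in siDDX41, so the groups overlapped. Its log2 fold change was 0.10 (95% interval 0.03 to 0.18, edgeR adjusted p = 0.0166), and the gene was called without siCtrl replicate 1 (edgeR adjusted p = 0.0065, with a range of 0.0065 to 0.0453 over 14 alternatives).

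In the list of 12 receptors and co-receptors, 10 were tested, 5 were upregulated, 3 were downregulated and 2 were not called. These are 50% up and 30% down, against 30.3% and 32.1% of all tested genes. The upward count includes ACVR2A, named after its values were seen, whose groups overlapped and whose exons share bases with ORC4, so its counts are uncertain. Its log2 fold change was 0.14 (edgeR adjusted p = 0.0063, with a range of 0.00158 to 0.0231 over 14 alternatives). The call was lost without siCtrl replicate 2 (edgeR adjusted p = 0.0211), siCtrl replicate 4 (0.0151), siDDX41 replicate 1 (0.0107), siDDX41 replicate 2 (0.0128) or siDDX41 replicate 3 (0.0231). ACVR2B, an activin and BMP type II receptor, rose from 44.1 ± 3.16 to 81.2 ± 5.42 CPM (log2 fold change 0.88, edgeR adjusted p = 6.59e-13). NEO1, which encodes neogenin, a receptor for repulsive guidance molecules, fell from 139 ± 3.92 to 65.7 ± 4.14 CPM (log2 fold change -1.08, edgeR adjusted p = 4.17e-21). RGMA, a BMP co-receptor that binds neogenin, also fell (log2 fold change -0.72, edgeR adjusted p = 5.12e-13). ENG, whose groups overlapped, also fell, and is named to complete the count and was chosen after its values were seen. Its call was lost with DESeq2 and with the replicate block and in 4 of the 10 fits that left out a library (edgeR adjusted p = 0.0266 without siCtrl replicate 1, 0.02 without siCtrl replicate 2, 0.0283 without siDDX41 replicate 1 and 0.0255 without siDDX41 replicate 5, with a range of 0.00306 to 0.0283 over 14 alternatives).

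All 4 signal-carrying SMADs were downregulated, in a list of only 4 genes, against 32.1% of all tested genes. SMAD5 (chr5:136132845-136188747, plus strand), which carries the BMP signal to the nucleus, had CPM levels of 97.9, 95.8, 101, 98.4 and 97.4 in siCtrl and 73.7, 78, 72.5, 75.9 and 69 in siDDX41. No siDDX41 library reached the siCtrl range. The log2 fold change was -0.41 (SE 0.033, edgeR adjusted p = 3.78e-12), and the level fell by 24.7%.

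SMAD1 (chr4:145481194-145559176, plus strand), the close relative of SMAD5 with the same role, had CPM levels of 25.5, 25.3, 28.4, 27.6 and 26.6 in siCtrl and 20, 19.5, 18.8, 20.2 and 18.6 in siDDX41. Again the groups did not overlap. SMAD1 had a log2 fold change of -0.46 (SE 0.048, edgeR adjusted p = 1.06e-09), and the level fell by 27.1%. SMAD9, the least abundant of the BMP-responsive SMADs, fell by 0.47 on the log2 scale (edgeR adjusted p = 5.98e-06), and SMAD4, the shared partner of BMP and TGF-beta SMADs, fell by 0.62 (edgeR adjusted p = 7.03e-15). Together, SMAD1, SMAD5 and SMAD9 summed to 23.4 to 25.1 CPM per kb in siCtrl libraries and to 17 to 18.7 CPM per kb in siDDX41 libraries. Their proportions barely moved, with SMAD5 at 57.7% ± 0.63 of the sum in siCtrl and 58.5% ± 0.609 in siDDX41 (SD, n = 5 each, ranges 57% to 58.4% and 57.8% to 59.4%).

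SMAD6 (chr15:66702236-66782849, plus strand), an inhibitory SMAD that competes with the signal-carrying ones, showed no called difference. Its CPM levels were 19.4, 18.1, 21.9, 18.6 and 20.3 in siCtrl and 18.9, 19.3, 18.1, 18.6 and 18.4 in siDDX41. The ranges of the groups overlapped. SMAD6 had a log2 fold change of -0.07, with a 95% interval of -0.18 to 0.03 (edgeR adjusted p = 0.211). Its counterpart SMAD7, singled out after its values were seen, rose from 25.9 ± 0.605 to 32.4 ± 1.68 CPM (log2 fold change 0.32, edgeR adjusted p = 1.63e-07).

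Ratios between members were taken within each library, so that they do not depend on library scaling, and 7 pairs were tested with exact two-sided permutation tests adjusted over the 7 pairs by Benjamini-Hochberg. The log2 ratio of SMAD6 to SMAD1 was -0.79 ± 0.083 in siCtrl and -0.41 ± 0.047 in siDDX41 (SD, n = 5 each), a difference of 0.38 (SE 0.043). SMAD6 to SMAD5 moved from -1.45 ± 0.09 to -1.11 ± 0.05, a difference of 0.34 (SE 0.046). Neither ratio overlapped between the groups, and since SMAD6 was not called, both restate the fall of SMAD1 and SMAD5. BMPR2 to BMPR1A moved from 1.07 ± 0.10 to 1.27 ± 0.063, a difference of 0.20 (SE 0.051). For each of these 3 pairs the exact permutation test gave p = 0.00794, the smallest that 5 libraries against 5 allow, and 0.0185 after adjustment.

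The other 4 ratios did not pass an adjusted p of 0.05. SMAD5 to SMAD1 differed by 0.05 (SE 0.031, exact permutation test, adjusted p = 0.183). ACVR1 to BMPR1A differed by 0.09 (SE 0.034, exact permutation test, adjusted p = 0.0556), ACVR1 to BMPR2 by -0.11 (SE 0.051, exact permutation test, adjusted p = 0.0648) and ID2 to ID1 by -0.21 (SE 0.086, exact permutation test, adjusted p = 0.0648). Without siCtrl replicate 2, ID2 to ID1 passed (exact permutation test, adjusted p = 0.0444, with a range of 0.0444 to 0.111 over the 10 left-out libraries). ACVR1 to BMPR1A passed without siCtrl replicate 2 and without siDDX41 replicate 2 (exact permutation tests, adjusted p = 0.0444 and 0.0278, with a range of 0.0278 to 0.111).

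**Figure D2:**
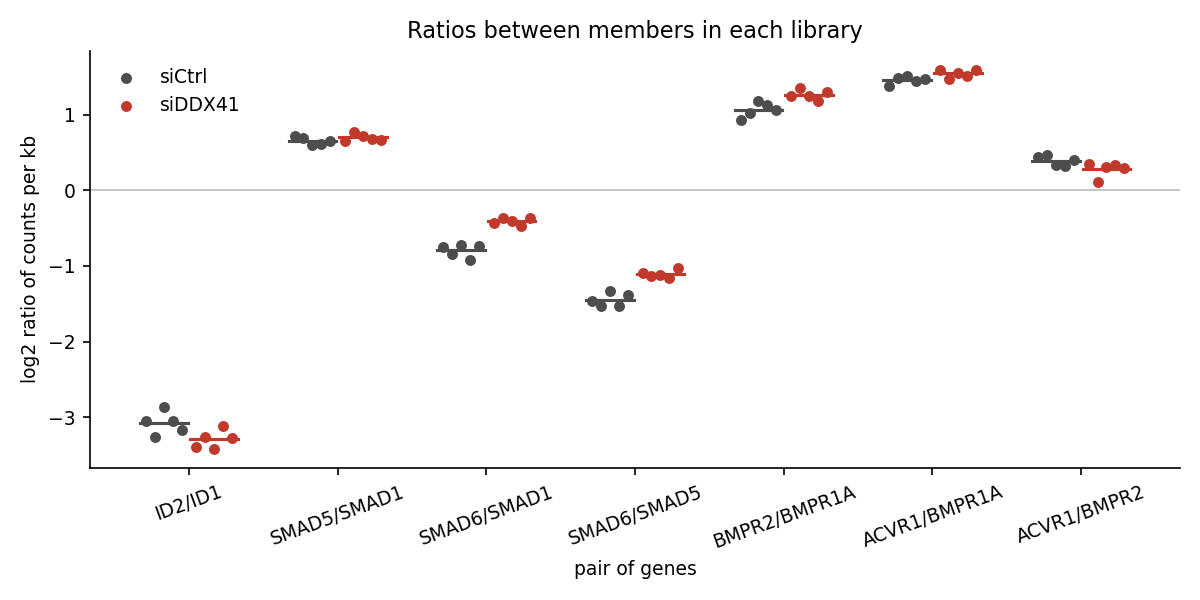
Log2 ratio of counts per kb of canonical transcript for 7 pairs of members in each library, with lines at the group means (n = 5 per group). The ratios of SMAD6 to SMAD1, SMAD6 to SMAD5 and BMPR2 to BMPR1A do not overlap between groups, and the other 4 do.

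The 3 ID genes that could be measured fell, against 32.1% of all tested genes called lower. ID1 (chr20:31605283-31606515, plus strand), a direct target of BMP SMADs in many cell types, had CPM levels of 72.6, 89.5, 66.6, 71 and 80.4 in siCtrl and 64.3, 61.1, 62.6, 57.5 and 61.2 in siDDX41. The groups did not overlap, although the gap between siCtrl replicate 3 and siDDX41 replicate 1 was small beside the spread of siCtrl, in which replicate 2 was the highest. The log2 fold change was -0.31 (SE 0.072, edgeR adjusted p = 0.00225), and the level fell by 19.4%. The call was lost without siDDX41 replicate 2 (edgeR adjusted p = 0.0104, with a range of 1.47e-11 to 0.0104 over 14 alternatives).

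ID2 (chr2:8678845-8684461, plus strand), which like ID1 restrains differentiation in many lineages, had CPM levels of 11.6, 12.3, 12.1, 11.3 and 11.7 in siCtrl and 8.1, 8.43, 7.74, 8.73 and 8.39 in siDDX41. The libraries of each group lay close together and the groups did not overlap. ID2 had a log2 fold change of -0.51 (SE 0.062, edgeR adjusted p = 2.1e-08), and the level fell by 29.9%. ID4, the family gene outside the members, had CPM levels of 5.92, 6.08, 5.97, 5.56 and 5.71 in siCtrl and 2.44, 2.13, 2.82, 2.34 and 2.13 in siDDX41. It fell further than ID1 and ID2, by 1.30 on the log2 scale (SE 0.1, edgeR adjusted p = 9.7e-13).

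The bases before the start sites of ID1, ID4, SMAD5 and BMPR2 are shown, all on the plus strand. These genes were chosen after their values were seen, and a relation between promoter and direction was not tested. SMAD1, which also fell, and SMAD6 and BMPR1A, not called, lie on the plus strand too and are not shown. The bases come from the RefSeq promoter table (GRCh38.p14). All 10 members were found in that table, with 18 windows of 250 bases before a start. The capitals mark 4 motifs searched on both strands, namely GGCGCC (a GC-rich SMAD element), GTCT (the SMAD-binding element), CACGTG (an E-box) and TATAAA (the TATA box), so that a match on the other strand appears as its reverse complement. The ID1 run, chr20:31605039-31605282, ends before the first exon base of ID1, the ID4 run is chr6:19837120-19837369, the SMAD5 run is chr5:136132595-136132844 and the BMPR2 run is chr2:202376077-202376326.
ID1: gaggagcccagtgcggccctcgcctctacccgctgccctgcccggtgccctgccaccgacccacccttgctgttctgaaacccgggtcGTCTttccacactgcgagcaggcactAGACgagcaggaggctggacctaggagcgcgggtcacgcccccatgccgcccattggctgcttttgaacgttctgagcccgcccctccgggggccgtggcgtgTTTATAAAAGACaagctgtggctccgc
ID4: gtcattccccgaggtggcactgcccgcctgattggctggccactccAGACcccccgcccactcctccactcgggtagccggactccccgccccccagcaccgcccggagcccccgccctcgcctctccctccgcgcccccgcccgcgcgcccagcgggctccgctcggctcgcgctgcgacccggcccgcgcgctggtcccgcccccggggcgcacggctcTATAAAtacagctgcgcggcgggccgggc
SMAD5: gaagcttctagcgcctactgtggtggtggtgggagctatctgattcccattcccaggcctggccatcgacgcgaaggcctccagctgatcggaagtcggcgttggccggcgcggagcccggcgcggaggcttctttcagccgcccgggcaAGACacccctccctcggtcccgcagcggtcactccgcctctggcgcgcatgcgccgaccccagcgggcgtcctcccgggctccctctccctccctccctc
BMPR2: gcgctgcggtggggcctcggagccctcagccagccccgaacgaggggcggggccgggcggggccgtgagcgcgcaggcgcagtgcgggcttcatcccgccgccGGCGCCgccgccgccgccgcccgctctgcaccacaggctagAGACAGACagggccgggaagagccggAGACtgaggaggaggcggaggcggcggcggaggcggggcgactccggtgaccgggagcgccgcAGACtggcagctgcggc
ID1 held GTCT at 3 places, and TATAAA matched at 2 overlapping places, once on each strand, beside the GTCT nearest the start. ID4 held TATAAA 29 bases before the start and GTCT 204 bases before it, SMAD5 held GTCT alone, 100 bases before the start, and BMPR2 held GTCT at 4 places and GGCGCC 147 bases before the start. The window of ID2 (chr2:8681806-8682055) held GTCT at 2 places and is not shown, since 202 of its bases lie in an exon of an ID2 transcript. Among 35116 RefSeq promoter windows of this length, 77.5% held GTCT, 10.7% held TATAAA, 16.4% held GGCGCC and 6.34% held CACGTG. Of the 18 member windows, 14 held GTCT, 3 held TATAAA, 5 held GGCGCC and 2 held CACGTG. These are matches of letters and show no binding.

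ID3 (chr1:23557926-23559501, minus strand) was listed at 0 in all 10 libraries and was not tested. This 0 cannot be read as a level, because its neighbours on chromosome 1 were listed at 0 as well. The neighbours were chosen after their values were seen. The 5 protein-coding genes before ID3 in genome order, HNRNPR, ZNF436, TCEA3, ASAP3 and E2F2, summed to 0 counts over all libraries. HNRNPR encodes an RNA-binding protein that nearly all cells express. On either side of this run of 6 genes, HTR1D had 5613 counts and RPL11, a ribosomal protein gene, had 156095. EEF1G, a translation elongation factor gene on another chromosome that is active in nearly all cells, was also listed at 0. The cause was not tested, and the same limit holds for other genes listed at 0, such as the antagonist GREM1. Pairs with ID3 could not be computed.

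Per kb of canonical transcript, a scale on which genes can be compared, ID1 was the most abundant member in siCtrl at 77.3 ± 9.2 CPM per kb (SD, n = 5), followed by BMP4 at 65.3 ± 3.05, and these 2 did not overlap by a narrow margin (67.8 against 67.7). ACVR1 followed at 18.3 ± 0.11, then BMPR2 and SMAD5, both at 14, with ranges that overlapped. ID2 at 9.08 and SMAD1 at 8.89 also overlapped, and BMPR1A at 6.66 and SMAD6 at 5.14 were the lowest of the 9. In siDDX41, BMP4 at 70.1 ± 1.91 lay above ID1 at 62.4 ± 2.54. When all exon bases of a gene were used as its length, an alternative chosen after seeing the data, ID1 and BMP4 were again the first and second in siCtrl, but ID1 stayed above BMP4 in siDDX41 (49.8 against 43.7 CPM per kb) and ACVR1 came after BMPR2 and SMAD5, so these orders depend on the transcript length. Within the measured ID family, ID1 made up 87.9% ± 1.13 of the summed level per kb in siCtrl and 89.9% ± 0.667 in siDDX41. The share of ID4 went from 1.73% ± 0.17 to 0.882% ± 0.101, and the sum itself from 78.6 to 102 CPM per kb in siCtrl libraries to 65.9 to 72.3 in siDDX41 libraries.

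**Figure D3:**
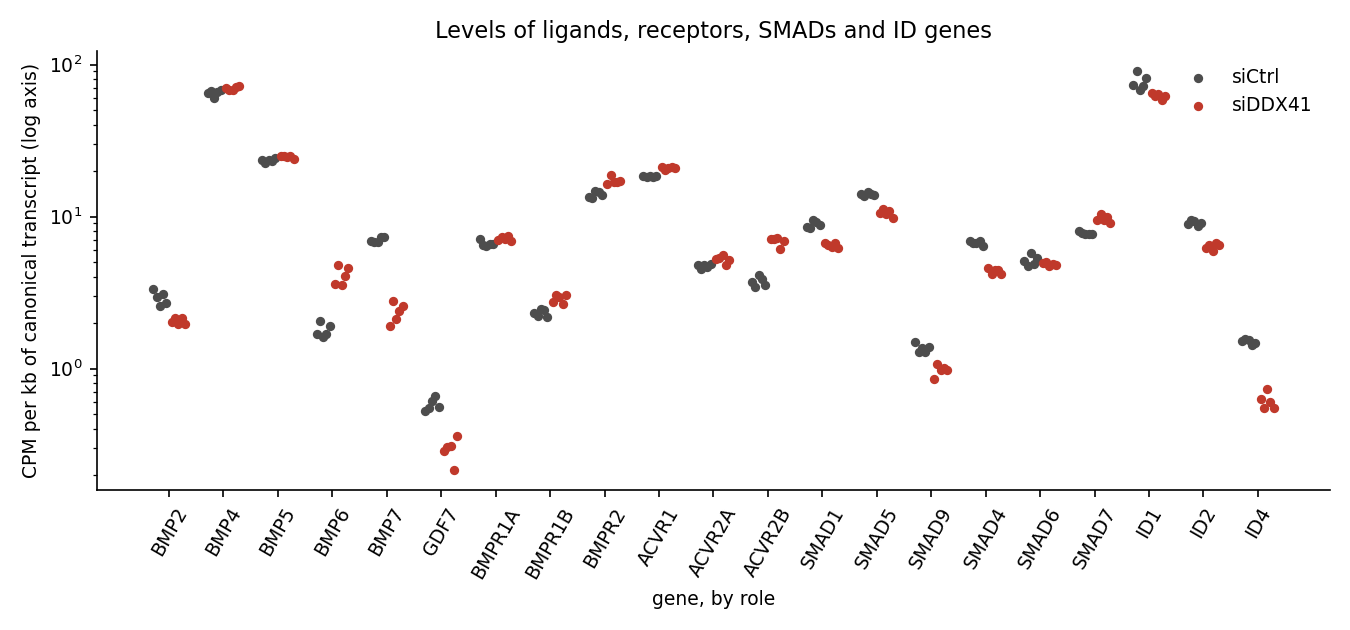
CPM per kb of canonical transcript on a log axis for ligands, receptors, SMADs and ID genes, with a point for each library (n = 5 per group). ID1 and BMP4 are the highest of the genes plotted, and BMP7 and ID4 show the wide downward gaps between groups.

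The genes whose libraries followed ID1 and ID2 most closely were taken by the root mean square difference of log2 CPM relative to the siCtrl mean, over 10 libraries, among 9929 genes with at least 10 CPM on average. For ID1 these were GPSM1 (difference 0.0357), RECQL4 (0.0374) and EFHD2 (0.0436). For ID2 they were DLST (0.0426), CASP6 (0.0443) and the long noncoding RNA BAIAP2-DT (0.0447). All 6 fell, which follows from choosing them for this likeness and is no separate result. Their log2 fold changes were -0.31, -0.30 and -0.32 for the genes like ID1 and -0.51, -0.47 and -0.50 for those like ID2. CASP6 shares exon bases with MCUB, so its counts are uncertain.

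The wider BMP pathway list held 83 genes with the members, of which 63 were tested. Of these, 17 were upregulated, 27 were downregulated and 19 were not called, or 27% and 42.9% against 30.3% and 32.1% of all tested genes. The median absolute log2 fold change was 0.325 in the list and 0.283 in all tested genes. The groups did not overlap with siDDX41 higher for 16 list genes and 3 members (26.7% of all tested genes), and with siDDX41 lower for 24 list genes and 4 members (29.3%).

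Intracellular and membrane inhibitors were split. Of 14 tested, 4 rose and 5 fell, or 28.6% and 35.7%, near the 30.3% and 32.1% of all tested genes. The fall of BAMBI was not called with DESeq2 (DESeq2 adjusted p = 0.0101). TOB1, not called, was called with the DESeq2 scaling and without siCtrl replicate 4 (edgeR adjusted p = 0.00889 and 0.00668). BAMBI and TOB1 were named after their values were seen. SMURF2, a ubiquitin ligase that marks SMADs and receptors for degradation, rose from 126 ± 2.71 to 177 ± 1.64 CPM (log2 fold change 0.49, edgeR adjusted p = 5.48e-16). CTDSPL and CTDSP2, phosphatases that can remove phosphates from SMADs, fell by 0.87 and 0.44 on the log2 scale (edgeR adjusted p = 3.35e-18 and 1.94e-12).

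Secreted antagonists, which bind BMPs outside the cell, moved in both directions. CRIM1, a membrane-anchored BMP-binding protein, rose from 213 ± 7.55 to 519.7 ± 19.5 CPM (log2 fold change 1.29, SE 0.03, edgeR adjusted p = 1.14e-24). NOG, which encodes noggin and blocks receptor binding of BMPs, had CPM levels of 31.3, 33.6, 32.2, 31.7 and 31.8 in siCtrl and 52, 54.6, 51.7, 55.6 and 54.4 in siDDX41. Its groups did not overlap (log2 fold change 0.74, SE 0.038, edgeR adjusted p = 9.82e-17). SOSTDC1, another BMP antagonist, went the other way, from 12.6 ± 0.915 to 4.12 ± 0.421 CPM (log2 fold change -1.61, SE 0.08, edgeR adjusted p = 5.67e-17). Among the 12 tested antagonists, 4 rose, 4 fell and 4 were not called. The 33.3% in each direction is near the 30.3% and 32.1% of all tested genes. FSTL1, not called, was called without the filter on low counts and without siDDX41 replicate 4 (edgeR adjusted p = 0.000488 and 0.000678). It was named after its values were seen.

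**Figure D4:**
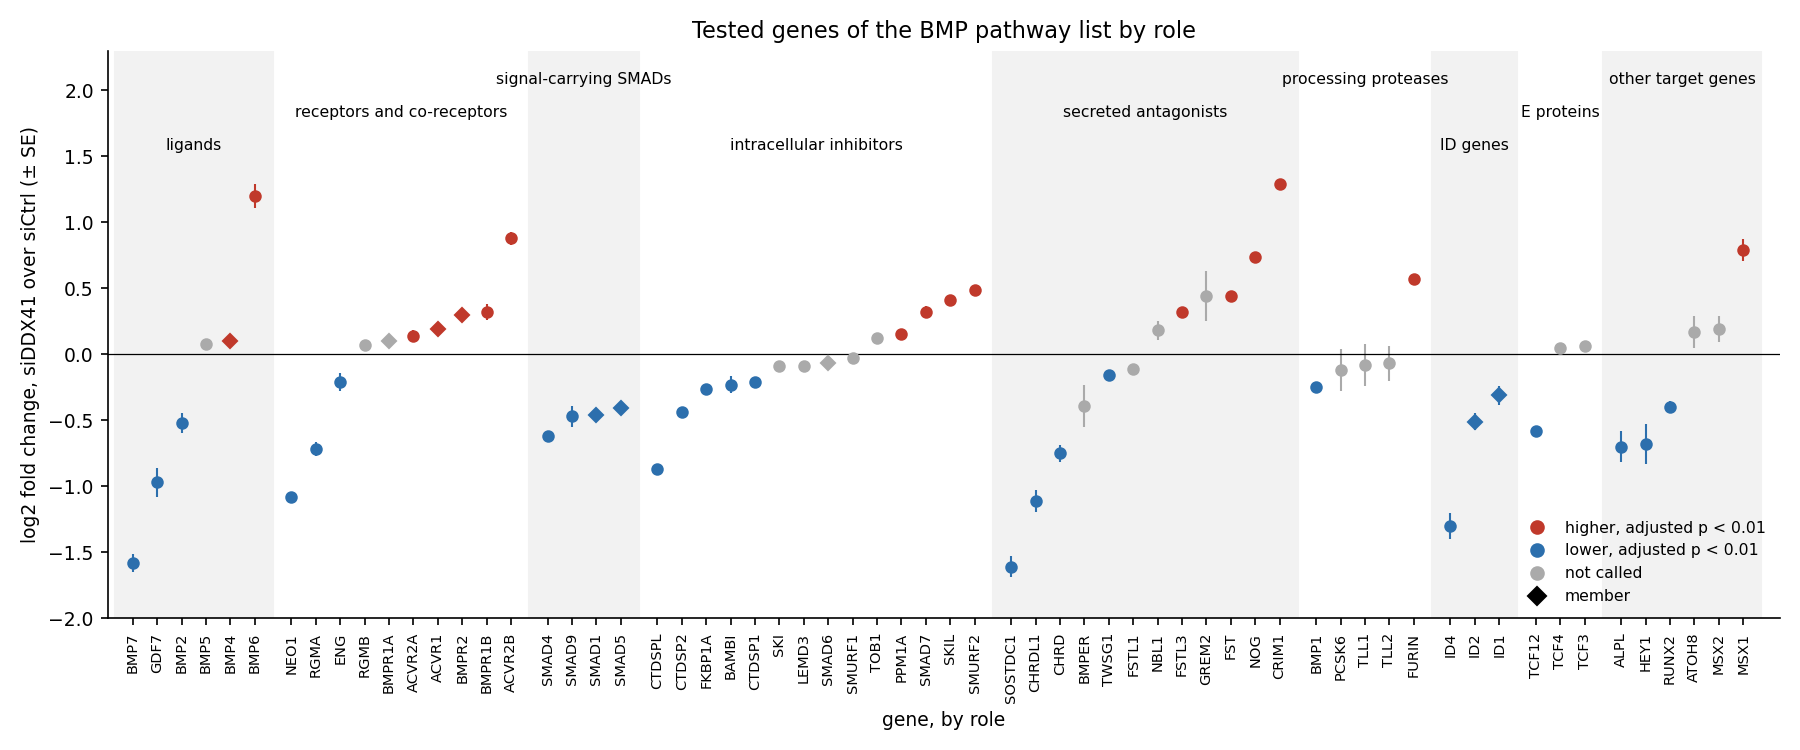
Log2 fold change of siDDX41 over siCtrl, with its SE, for the 63 tested genes of the BMP pathway list by role, with members as diamonds and called genes in red (higher) or blue (lower). All 4 signal-carrying SMADs and all 3 tested ID genes lie below 0 and were called, against 32.1% of all tested genes called lower. The other roles with more than 3 tested genes hold genes on both sides.

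Of the 5 proteases that mature BMPs or free them from antagonists, 1 rose, 1 fell and 3 were not called. Over all tested genes, 30.3% were called higher and 32.1% lower. FURIN rose (log2 fold change 0.57, edgeR adjusted p = 6.7e-16) and BMP1 fell (log2 fold change -0.25, edgeR adjusted p = 2.43e-08). PCSK6 was among those not called (log2 fold change -0.12, edgeR adjusted p = 0.523). Of the 3 E protein genes, whose products ID proteins bind, TCF12 fell from 218 ± 5.79 to 146 ± 6.9 CPM (log2 fold change -0.58, edgeR adjusted p = 2.97e-16). TCF3 and TCF4 had log2 fold changes of 0.06 and 0.05 (edgeR adjusted p = 0.153 and 0.239). Over 14 alternatives these ranged from 0.03 to 0.10 for TCF3 and from 0.01 to 0.07 for TCF4. Of 10 other target genes, 6 were tested, 1 rose, 3 fell and 2 were not called. These are 16.7% up and 50% down, against 30.3% and 32.1% of all tested genes. MSX1, a homeobox target of BMPs, rose from 5.22 ± 0.383 to 9.05 ± 0.992 CPM (log2 fold change 0.79, edgeR adjusted p = 1.21e-09). RUNX2, the regulator of the osteoblast lineage, and ALPL, the bone alkaline phosphatase, fell by 0.40 and 0.70 on the log2 scale (edgeR adjusted p = 2.24e-09 and 5.51e-06).

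The TGF-beta branch, the most similar pathway, which signals through SMAD2 and SMAD3, was set beside the list. Of its 8 genes, all tested, 3 rose, 3 fell and 2 were not called. That is 37.5% in each direction, against 30.3% up and 32.1% down among all tested genes. TGFB2, not called, was called without siCtrl replicate 5 and without siDDX41 replicate 4 (edgeR adjusted p = 0.00583 and 0.00683). TGFBR2 and TGFBR3, a receptor kinase and a co-receptor, rose by log2 fold changes of 0.59 and 1.13 (edgeR adjusted p = 6.79e-18 and 1.6e-13). The other receptor kinase of this list, TGFBR1, fell by 0.47 (edgeR adjusted p = 2.64e-11), and the ligand TGFB1 fell by 0.73 (edgeR adjusted p = 2e-16). SMAD3 rose (log2 fold change 0.22, edgeR adjusted p = 3.4e-08) and SMAD2 had a log2 fold change of 0.05 (edgeR adjusted p = 0.131), where SMAD1, SMAD5 and SMAD9 fell. This difference between the branches was not tested. TGFB2, TGFBR1, SMAD2 and SMAD3 were singled out after their values were seen.

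Some named genes share exon bases with another counted gene, and the strand setting of the counting was not given, so reads of these pairs cannot be told apart. Among the members these are ID2, SMAD1 and SMAD5, whose antisense partners had 83, 1 and 15 counts in all against 2382, 5467 and 20372 for the members. Partners whose counts are larger relative to the named gene overlap SMURF2 (CEP95), TGFB1 (HNRNPUL1), PCSK6 (SNRPA1), BMP6 (TXNDC5) and ENG (a long noncoding RNA), and the counts of these 5 genes are uncertain, as are those of SOSTDC1 and of the markers CDH1 and TWIST1.

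Markers of cell types were measured beside these results. In the mesenchymal and osteosarcoma list of 7 genes, SPARC had the highest CPM. Per kb of canonical transcript, VIM lay above SPARC (1144 against 813 CPM per kb in siCtrl and 1077 against 922 in siDDX41). The summed level of the list was 8893 to 9214 CPM in siCtrl libraries and 8778 to 9094 CPM in siDDX41 libraries, and its genes moved in different directions. SPARC rose (log2 fold change 0.18, edgeR adjusted p = 1.42e-07), VIM and CDH2 fell by 0.09 and 0.12 (edgeR adjusted p = 0.00174 and 0.00129), and COL1A1 and FN1 were not called, with COL1A2 below 1 CPM on average and TWIST1 at 1 count in all. Among the blood cell markers, CD34 was the most abundant and CD3E was listed at 0. Their summed CPM was 30.5, 28.4, 31.5, 32.3 and 31 in siCtrl and 4.83, 5.52, 3.87, 5.79 and 6 in siDDX41. CD34 alone made this difference, with 30.4 CPM on average in siCtrl and 4.66 CPM in siDDX41, while PTPRC stood at 0.333 and 0.539 CPM and was not called. Of 4 epithelial markers, KRT20 was listed at 0, and the list summed to 14.1, 13.3, 14.4, 13.9 and 14.9 CPM in siCtrl and 9.57, 10.8, 10.1, 9.37 and 8.85 CPM in siDDX41. That difference is KRT5, which fell from 5.24 to 0.488 CPM on average, while EPCAM, the most abundant, stood at 7.99 and 8.31 CPM and CDH1 at 0.874 and 0.928 CPM, neither of them called. The 3 endothelial markers, led by VWF, summed to 4.66, 4.82, 5.59, 5.26 and 4.79 CPM in siCtrl and to 1.52, 2.61, 2.9, 2.17 and 2.13 CPM in siDDX41. Mitochondrial genes took 1.13% to 1.69% of counts in siCtrl libraries and 2% to 2.29% in siDDX41 libraries. The part of these differences in the results above was not tested.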

How the data were processed

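The deposited values are read counts per gene, which the authors made with STAR 2.7 on hg38, Gencode release 25 and featureCounts 1.6; neither its strand option nor its treatment of multi-mapped reads was stated. Here, genes were named from GENCODE release 44, with a match for 98.7% of tested genes. Counts were fitted in edgeR 4.0.16 (filterByExpr, TMM, robust quasi-likelihood test, Benjamini-Hochberg adjustment, calls under 0.01), with DESeq2 1.42.0 as an alternative, and the fit was tested on simulated data. Levels per kb used the Ensembl canonical transcript, and ratios used exact permutation tests in scipy 1.17.1. Genes named were DDX41, the members, up to 3 further tested genes with the smallest adjusted p of each role list, and 3 genes most like ID1 and ID2. The members and lists were chosen with earlier results of these data known. Of 9 planned ratios, 7 could be computed, since ID3 is listed at 0. The alternative length (all exon bases) and the counts without ID3 were added after the data were seen. The labels do not say whether replicate numbers pair samples, and the main fit did not pair them. Alternatives changed the test, scaling, filter, threshold, replicate block and libraries used.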

Additional observations from a re-analysis of the deposited data

Results flagged for a closer look

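Among DDX41, the tested members and the other genes named by the rule, 6 of 86 groups of 5 libraries held a library far from the others relative to the range of the group, and chance alone flags about 1 in 20 groups. BMPR2 was highest in siDDX41 replicate 2 at 226 CPM, where the other siDDX41 libraries lay between 199 and 206. The same library was the highest for TCF4, at 167 CPM against 141 to 148, and for RUNX2, at 26.1 CPM against 24.1 to 24.4. ACVR2B was lowest in siDDX41 replicate 4 at 71.7 CPM, where the others lay between 81.9 and 84.7, and EFHD2 was lowest in that library too, at 64.8 CPM against 70.6 to 71.7. CASP6 was lowest in siDDX41 replicate 3 at 17.5 CPM, against 19.5 to 20. The calls of BMPR2, ACVR2B, RUNX2, EFHD2 and CASP6 held in all 14 alternatives run for each of them, the fits without these libraries included, and TCF4 was called in none. Genes named after their values were seen, and the cell type markers, were not part of these 86 groups. Of the former, BMP5 was lowest in siDDX41 replicate 5 at 94.7 CPM, against 98.5 to 99.8, and SMAD7 was highest in siCtrl replicate 1 at 27 CPM, against 25.5 to 25.9. Both would pass the same limit. BMP5 was called without that library, and SMAD7 was called in all 14 alternatives.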

How the results depend on the processing

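With each library left out in turn, 4648 to 4823 genes were called higher in siDDX41 and 4968 to 5121 lower, 2 to 3 members higher and 3 to 4 lower, and 15 to 17 list genes higher and 26 to 28 lower. No called gene of those named reversed its direction in any alternative. Only the added demand of an absolute log2 fold change over 1 moved counts by more than 1.5 times, by its own construction: it left 410 genes higher and 982 lower, 0 members in either direction, and 2 list genes higher and 5 lower. The difference of ID2 to ID1 ranged from -0.26 to -0.16 and that of ACVR1 to BMPR1A from 0.07 to 0.11 over the left-out libraries. That of ACVR1 to BMPR2 ranged from -0.13 to -0.07 and that of SMAD5 to SMAD1 from 0.03 to 0.06. The labels do not say whether the replicate numbers pair the samples. Over all tested genes, deviations of same-numbered libraries correlated at -0.096 to 0.0695. A correlation over all genes cannot exclude pairing that shows in some genes only. With the replicate block, 4790 genes were called higher and 5097 lower, of which 4760 and 5069 were also called without it. Among 1092 alternative values of single genes, 1066 kept their side of the threshold and direction, 18 were no longer called and 8 were newly called. For PCSK6, with 24 to 43 counts per library, the 95% interval of the log2 fold change was -0.44 to 0.20, so a change within it was not excluded.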
